A study of Mus musculus with 3 samples.

Results

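Immunoglobulin V genes encode the part of the antibody that contacts antigen. The genes studied here are all 348 genes of the count tables whose symbol starts with Ighv (185 heavy-chain genes), Igkv (160 kappa light-chain genes) or Iglv (3 lambda light-chain genes), of 32285 genes in all. Of these, 209 had at least 1 UMI (unique molecular identifier, a tag that marks 1 captured transcript) in the series and 139 had none. The annotation lists 130 of the 348 as pseudogenes, and these held 0.71% of the V UMIs. The samples were 3 single-cell RNA libraries (replicates 1, 2 and 3) of live CD45+ leukocytes sorted from pancreatic islets of wild-type female NOD mice, a strain that develops autoimmune diabetes. All libraries belong to a single group, and by the study's methods each pooled islet cells of several mice, so there was no treated or control animal to compare. The comparisons were therefore between cell classes within a library, with the library as the replicate.

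Each B cell joins 1 heavy-chain V segment to D and J segments, and 1 light-chain V segment to a J segment, so a B cell and its descendants carry the same rearranged pair of V genes. Cells that were stimulated by antigen can lose surface IgD, switch from IgM to another heavy-chain constant region and become plasma cells, which secrete antibody and hold far more immunoglobulin mRNA. Descendants of an expanded B cell appear as many cells with the same V genes. The V segment lies at the 5′ end of the mRNA, whereas the kit used here sequences near the 3′ end, so most immunoglobulin reads fall in the constant region and the junctions that identify a clone were not read.

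Cells with at least 1000 UMIs, under 10% mitochondrial UMIs and no Cd3e (a T-cell receptor subunit) were called B cells where Cd79a, a B-cell receptor subunit, had at least 2 UMIs and Jchain, which joins secreted antibody, at most 2. They were plasma cells where Jchain had at least 5 UMIs and Mzb1 and Xbp1, which serve antibody secretion, had at least 1 each. There were 4771 B cells, of which 3625 had at least 1 UMI of Ighd (the IgD constant region) and 1146 had none, and 106 plasma cells, of 26947 cells in all. The plasma cells numbered 59, 19 and 28 in replicates 1, 2 and 3. T cells (at least 1 UMI of Cd3e and none of Cd79a, 15507 cells) served as the measure of free RNA. Of 9 plasma-cell markers listed for this work, Jchain, Mzb1 and Xbp1 were required by the rule. The other 6 were also found in the plasma cells, with Sdc1 in 56, Derl3 in 72 and Tnfrsf17 in 35 of the 106 cells. B-cell markers were present too, with Ms4a1 in 67 and H2-Aa in 101 cells. All 4 listed markers of plasmacytoid dendritic cells were found in plasma cells, Siglech in 1, Ccr9 in 11, Bst2 in 87 and Tcf4 in 97 cells. The cell with Siglech, of replicate 2, had 19 UMIs of it, 0 of Cd79a and no V UMI, and it was kept in the class. The summed level of the 4 markers was 3.99, 7.43 and 4.69 UMIs per 10000, against 2.61, 2.62 and 2.51 in Ighd-positive B cells, and their part in the results was not tested. The libraries held 5844, 9537 and 11566 cells and 33851381, 74775394 and 80806452 UMIs, and at most 29 barcodes were shared by any pair of libraries. No doublet caller was run. Median depth was 4160 to 6829 UMIs in the B-cell classes, 3987 to 6238 in T cells and 18177 to 26789 in plasma cells. The filters the study states keep cells under 6000 UMIs, and under them 0, 0 and 1 plasma cells were left, so wider filters were used here.

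The V genes that the results turn on are shown by the last 90 bases of their reference coding sequence, as given by the GENCODE mouse release 21 annotation of GRCm38 (the build also called mm10). Positions are on GRCm38 and cover the printed bases only, and the capitals mark the codon of the conserved cysteine after which the junction with D or J begins. All are in the V exon. The reference genome is of the C57BL/6 strain, not NOD, and what strain differences did to the counts was not tested.
Iglv1 (chr16:19085017-19085106, minus strand, lambda): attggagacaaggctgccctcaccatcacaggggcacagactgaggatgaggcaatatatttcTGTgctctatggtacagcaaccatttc
Ighv5-4 (chr12:113597446-113597535, minus strand, most frequent in B cells): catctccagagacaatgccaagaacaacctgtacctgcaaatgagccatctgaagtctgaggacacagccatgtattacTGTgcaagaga
Ighv2-2 (chr12:113588267-113588356, minus strand): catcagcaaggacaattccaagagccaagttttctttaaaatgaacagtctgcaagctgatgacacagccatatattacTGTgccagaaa
Ighv1-39 (chr12:114914599-114914688, minus strand, most frequent in plasma cells): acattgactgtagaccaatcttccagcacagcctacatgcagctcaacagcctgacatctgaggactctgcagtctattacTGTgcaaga
Ighv1-26 (chr12:114788372-114788461, minus strand): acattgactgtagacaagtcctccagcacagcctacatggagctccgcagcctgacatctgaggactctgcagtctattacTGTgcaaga
Ighv1-18 (chr12:114682632-114682721, minus strand): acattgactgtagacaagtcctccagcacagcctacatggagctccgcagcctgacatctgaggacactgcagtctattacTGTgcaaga
Igkv8-24 (chr6:70216858-70216947, minus strand, found with Ighv1-26): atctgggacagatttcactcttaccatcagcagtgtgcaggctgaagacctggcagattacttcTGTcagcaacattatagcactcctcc
Igkv6-32 (chr6:70074024-70074113, minus strand, found with Ighv1-18): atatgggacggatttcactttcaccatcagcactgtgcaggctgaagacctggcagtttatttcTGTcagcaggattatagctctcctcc
Igkv1-135 (chr6:67610419-67610508, plus strand): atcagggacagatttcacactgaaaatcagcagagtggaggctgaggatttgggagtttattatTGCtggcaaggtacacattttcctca

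Many V genes are near copies of each other, and a read can then be counted for a neighbour of the gene it came from. Over the 75 bases that end with the cysteine codon, Ighv1-18 and Ighv1-26 differ at 1 base, while Ighv1-39 differs from them at 7 and 6 bases. Igkv4-74 and Igkv4-61 do not differ over these bases. The Igkv12 genes among the most frequent leads of B cells, Igkv12-44 (gene at chr6:69814631-69815154) and Igkv12-46 (chr6:69764523-69765022), differ at 4 of 75 bases, shown here in capitals.
Igkv12-44: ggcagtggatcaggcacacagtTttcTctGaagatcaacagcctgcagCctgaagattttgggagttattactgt
Igkv12-46: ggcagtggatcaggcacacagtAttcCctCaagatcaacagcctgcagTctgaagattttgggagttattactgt

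V transcripts were concentrated in plasma cells. The 106 plasma cells held 10856 of the 22393 V UMIs in the series (48.5%), and the 4771 B cells held 3070 (13.7%). Heavy-chain V genes made up 11.9, 8.07 and 10.5 UMIs per 10000 UMIs of the plasma cells of replicates 1, 2 and 3. In B cells they made up 0.588, 0.464 and 0.343. The plasma-cell level was 20.3, 17.4 and 30.6 times the B-cell level in the 3 libraries, and the classes did not overlap. Kappa V genes made up 17.7, 10.5 and 16.1 UMIs per 10000 in plasma cells and 0.715, 0.409 and 0.316 in B cells. The 3 lambda V genes, which stood at 0.09, 0.0376 and 0.0202 in B cells, reached 26.3, 18.7 and 5.87 in plasma cells and so exceeded all 160 kappa genes together in replicates 1 and 2. The exact two-sided sign-flip permutation test over the 3 libraries gave p = 0.25 for each locus, the smallest p that 3 libraries allow, with plasma cells higher in 3 of 3 libraries.

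In T cells, the level of free V transcripts was at least an order of magnitude under that of B cells. Heavy V genes made up 0.0028, 0.00204 and 0.00675 UMIs per 10000 in T cells, and kappa V genes 0.00979, 0.00638 and 0.00675. A single T cell of replicate 3 held 39 of the 68 V UMIs of that library's T cells, 19 heavy and 20 light. It was kept, and whether its V UMIs were free RNA was not tested. The share of T cells with at least 1 light-chain V UMI was 0.654%, 0.558% and 0.199%, against 30.1%, 25.8% and 17.1% of B cells, at median depths within the ranges given above. The V UMIs of B cells were thus above the free-RNA level in every library.

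**Figure D1:**
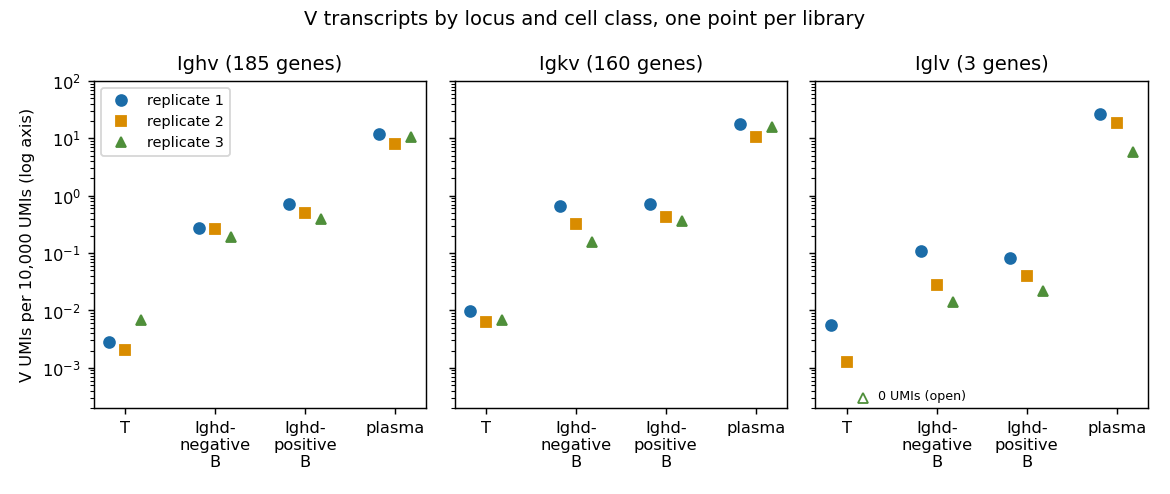
V UMIs per 10000 UMIs (log axis) for the Ighv, Igkv and Iglv genes in T cells, Ighd-negative B cells, Ighd-positive B cells and plasma cells, with 1 point per library. Plasma cells were above both B-cell classes, and these above T cells, for each locus in each library; the open point marks 0 UMIs of lambda V genes in the T cells of replicate 3.

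Set against the constant-region UMIs of the same chain, a measure that does not depend on how much immunoglobulin mRNA a cell held, the plasma cells did not stand higher for the heavy and kappa chains. There were 1.73 ± 0.394 heavy V UMIs per 100 heavy constant UMIs in plasma cells (mean ± SD, n = 3 libraries), 3.86 ± 1.03 in Ighd-positive B cells and 2.71 ± 0.457 in Ighd-negative B cells. Kappa V genes gave 0.749 ± 0.0709 per 100 Igkc UMIs in plasma cells, 1.09 ± 0.3 in Ighd-positive and 0.823 ± 0.363 in Ighd-negative B cells. Lambda V genes were different, with 11.7 ± 5.05 UMIs per 100 UMIs of Iglc1, Iglc2 and Iglc3 in plasma cells and 0.644 ± 0.326 in Ighd-positive B cells.

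A V gene was said to lead a cell where it had the most UMIs of its chain (heavy, or kappa and lambda together), at least 2 UMIs and no tie. A heavy V gene led 3.64%, 5.48% and 2.95% of the B cells of replicates 1, 2 and 3 (4.02% ± 1.3), and a light V gene led 4.27%, 3.76% and 3.34% (3.79% ± 0.468). The same rule found a heavy lead in 1 and a light lead in 2 of 15507 T cells. With a lead of at least 1 UMI, the mean shares of B cells rose to 23.1% and 22.2%, and with all cells thinned to 1000 UMIs they were 0.275% and 0.193%, so the share of B cells that could be assigned moved with the lead rule and with depth. In plasma cells a heavy V gene led 44 of 59, 12 of 19 and 20 of 28 cells and a light V gene 48, 11 and 18 cells. With at least 20 UMIs of Jchain in place of 5, a heavy gene led 44 of 51, 11 of 11 and 19 of 21 plasma cells, so cells near the Jchain limit held most of those without a lead. Exact 95% binomial intervals for the heavy share were 61.6% to 85%, 38.4% to 83.7% and 51.3% to 86.8%, and cover counting error only.

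Among B cells the heavy-chain leads were spread over 69 genes. Ighv5-4 led most, with 6 of 63, 8 of 96 and 4 of 38 cells that had a lead (9.52%, 8.33% and 10.5%). It was followed by Ighv2-2 (6.47% ± 2.86), Ighv1-26 (5.79% ± 2.43), Ighv9-3 (4.57% ± 2.22) and Ighv1-76 (4.39% ± 7.6). Ighv1-76 led 5 cells of replicate 3 and none in the other libraries. Ighv5-4 was above Ighv1-26 and Ighv9-3 in 3 of 3 libraries and level with Ighv2-2 in replicate 2, and the means of these genes other than Ighv5-4 lie within their spread. Of the 69 genes, 10 led cells in all 3 libraries and 38 in 1 library only. The Ighv1 family, the largest with 93 listed genes, held 47.1% ± 6.76 of the leads, Ighv5 18.4% ± 4.91 and Ighv2 13.4% ± 7.78.

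Light-chain leads of B cells were spread over 41 genes. Igkv12-44 led 10.8%, 12.1% and 20.9% of the cells with a lead, Igkv1-135 led 20.3%, 4.55% and 11.6%, and Igkv12-46 led 6.76%, 12.1% and 11.6%. The order of these genes changed from library to library, and their means (14.6%, 12.1% and 10.2%) do not differ beyond the spread. Igkv5-45 (6.49% ± 4.97) and Igkv17-127 (4.94% ± 3.93) came next. The Igkv12 family held 25.7% ± 6.82 of the leads and the Igkv1 family 21.7% ± 8.91. With a lead of at least 1 UMI, the order was Ighv9-3, Ighv5-4 and Ighv2-2 for the heavy chain and Igkv12-46, Igkv1-135 and Igkv12-44 for the light chain. Usage over all V genes in B cells then correlated between libraries with Spearman's rho of 0.637 to 0.688 over 98 heavy genes and 0.722 to 0.827 over 79 light genes. With the main rule of at least 2 UMIs, rho was lower, 0.0506 to 0.182 over 69 heavy genes and 0.448 to 0.63 over 41 light genes. These values are given as a description across genes, which share the libraries and are not independent.

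The Ighd-negative B cells included those with switched constant regions. Igha, Ighg1 and Ighg2b, the constant regions of IgA, IgG1 and IgG2b, were higher in them than in Ighd-positive cells, with log2 fold changes of 3.15 (SE 0.36), 2.76 (SE 0.12) and 2.23 (SE 0.23) and adjusted p of 0.000735, 9.53e-08 and 0.000301 in edgeR's quasi-likelihood test on UMIs summed per library and class. Ighg2c and Ighg3 were not called (edgeR adjusted p of 0.0593 and 0.256). Ighm, the IgM constant region, still held 5007 UMIs in Ighd-negative cells, against 693 of Ighg2b, 524 of Igha and 281 of Ighg1. Fas, a death receptor, was 1.44 higher in Ighd-negative cells (SE 0.19, edgeR adjusted p = 0.00181). None of the V genes tested was called in either direction. Of 9230 genes tested, 0.726% were called higher and 0.0975% lower in Ighd-negative cells, and 10 V genes were among those tested, with 0 at an unadjusted p under 0.05 in either direction. The filter on low counts also used the plasma-cell sums, and Igkv4-72 was tested with 1 UMI in all B cells. Ighv2-2, Ighv1-26 and Ighv9-3, frequent leads of B cells, did not pass it. The test thus covered few of the V genes that B cells used. DESeq2 also called 0, with 1 V gene lower at an unadjusted p under 0.05. Without the filter on low counts 204 V genes were tested, and Ighv2-2, Ighv9-3 and Ighv5-17 were called lower (log2 fold changes of -2.73, -2.07 and -3.21, edgeR adjusted p of 0.00749, 0.0118 and 0.0423). All of these are heavy V genes, which lie on the same transcript as Ighd. The calls are thus not independent of the way the cells were split and are not read as a finding. Over all genes in that setting, 58 of 17634 were called lower.

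All heavy V genes together made up 0.278, 0.265 and 0.187 UMIs per 10000 in Ighd-negative and 0.712, 0.509 and 0.392 in Ighd-positive B cells, lower in 3 of 3 libraries (exact sign-flip permutation p = 0.25, the smallest possible). The heavy V segment lies on the same transcript as Ighd, so this measure is not independent of the way the cells were split. The light chain lies on another transcript, but whether the split also selects cells by how much immunoglobulin mRNA was captured was not tested. Light V genes made up 0.781, 0.353 and 0.173 UMIs per 10000 in Ighd-negative and 0.815, 0.469 and 0.387 in Ighd-positive cells. Ighd-negative cells were lower in 3 of 3 libraries, by little in replicate 1 and by most in replicate 3 (exact permutation p = 0.25).

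Only 4, 5 and 4 Ighd-negative cells had a leading heavy V gene, each of them a different gene within its library (among them Ighv1-15, Ighv1-19, Ighv1-42, Ighv1-82 and Ighv2-2, with 1 cell each). Light leads numbered 15, 6 and 2. Igkv1-135 led 5 and Igkv12-44 led 4 of these cells, followed by Iglv1 with 3, Igkv1-117 with 2 and Igkv1-110 with 1. The chance that 2 cells of the class and library were led by the same heavy V gene was 0% in Ighd-negative and 2.84% ± 0.66 in Ighd-positive cells, a difference of -2.84 percentage points ± 0.66 (exact sign-flip permutation p = 0.25, lower in 3 of 3 libraries). With a lead of at least 1 UMI, which gave 59, 61 and 36 Ighd-negative cells, that difference was -0.254 ± 0.348. For the light chain the values were 2.22% ± 3.85 and 5.93% ± 0.83 (difference -3.71 ± 3.26, exact permutation p = 0.5). At this depth a difference in evenness between Ighd-negative and Ighd-positive cells was not detectable.

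**Figure D2:**
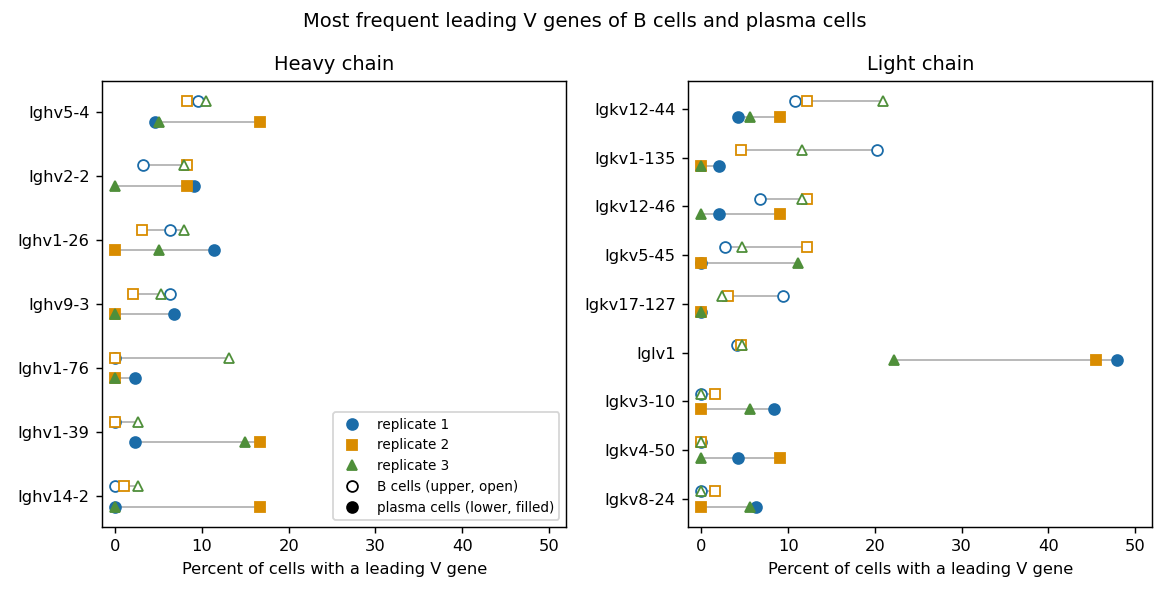
Percent of cells with a leading V gene that were led by each gene, for the 5 most frequent heavy (left) and light (right) genes of B cells and of plasma cells. Open symbols are B cells, filled symbols plasma cells, the shapes are the 3 libraries and the grey lines join the lowest and highest library; Iglv1 led 22.2% to 47.9% in plasma cells and 4.05% to 4.65% in B cells.

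Plasma cells with a heavy lead used 26 genes in 44 cells, 9 genes in 12 cells and 18 genes in 20 cells. The chance that 2 plasma cells of a library had the same heavy lead was 3.28%, 4.55% and 1.58%, against 2.05%, 2.57% and 3.7% for B cells. Plasma cells were higher in replicates 1 and 2 and lower in replicate 3, and the mean difference of 0.363 percentage points ± 2.18 was smaller than its spread (exact sign-flip permutation p = 1). With a lead of at least 1 UMI, plasma cells were higher in 3 of 3 libraries (3.55%, 3.85% and 2.37% against 1.95%, 2.05% and 2.11%), a difference of 1.22 ± 0.838 points, so the direction in replicate 3 depended on the lead rule. In 50 of the 56 plasma cells with at least 10 heavy V UMIs a single gene held at least 90% of them, and the lowest share among the 56 was 52.6%.

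By the rule that a gene led at least 3 plasma cells and 5% of those with a lead in a library, 5 heavy V genes were expanded, each in 1 library. Ighv1-26 led 5, 0 and 1 plasma cells, Ighv2-2 led 4, 1 and 0, Ighv1-18 led 4, 0 and 1, and Ighv9-3 led 3, 0 and 0 in replicates 1, 2 and 3. Ighv1-39 led 1, 2 and 3 cells (2.27%, 16.7% and 15%) and was the only one of them with a cell in every library. It led 1 B cell, in replicate 3, whereas Ighv2-2, Ighv1-26 and Ighv9-3 were also among the most frequent genes of B cells. The mean shares of these genes were 5.81%, 5.45% and 2.27% in plasma cells and 6.47%, 5.79% and 4.57% in B cells. The rule of expansion makes no comparison with B cells. The 6 plasma cells of Ighv1-39 carried 8 to 105 UMIs of the gene and had 4 different main constant regions (Igha, Ighg1, Ighg2b and Ighg2c). They were led by 5 different kappa genes. Ighv5-4, which led 2, 2 and 1 plasma cells, and Ighv14-2, which led 2 cells of replicate 2, did not meet the rule.

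Iglv1 was the most frequent light lead of plasma cells in each library, although most cells it led were kappa by constant region (given below). It led 23 of 48, 5 of 11 and 4 of 18 plasma cells with a light lead (47.9%, 45.5% and 22.2%) and 3, 3 and 2 B cells (4.42% ± 0.319). The next genes were Igkv12-44 (6.27% ± 2.54), Igkv3-10 (4.63% ± 4.24), Igkv4-50 (4.42% ± 4.55) and Igkv8-24 (3.94% ± 3.43), of which Igkv3-10 (4 cells) and Igkv8-24 (3 cells) met the rule of expansion in replicate 1. The chance that 2 plasma cells shared a light lead was 23.4%, 18.2% and 5.88%, against 6.92%, 4.85% and 6.87% for B cells. Plasma cells were well above B cells in replicates 1 and 2 and below in replicate 3, with a mean difference of 9.61 points ± 9.31 (exact sign-flip permutation p = 0.5). With leads taken from the kappa genes alone, an alternative added after the data were seen, the values were 2.68%, 2.22% and 4.58% in plasma cells and 7.53%, 5.17% and 7.44% in B cells. The difference then had the opposite sign, -3.55 ± 1.12 points, in 3 of 3 libraries (exact permutation p = 0.25). The B-cell values depended on the lead rule. With a lead of at least 1 UMI from kappa and lambda genes together, they were 3.45%, 3.34% and 3.25%, against 20.1%, 18.2% and 3.9% in plasma cells. Kappa genes alone were not compared under that rule, so whether the opposite sign holds there was not tested.

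**Figure D3:**
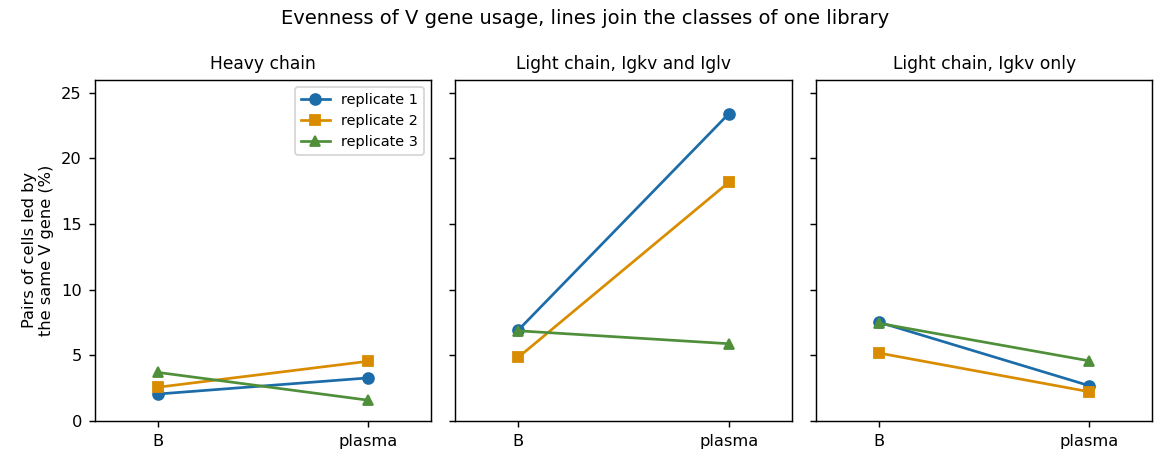
Percent of pairs of cells in a library that were led by the same V gene, in B cells and plasma cells, with 1 line per library. All values are for leads of at least 2 UMIs. Heavy-chain values stayed between 1.58% and 4.55%, and light-chain values reached 23.4% in plasma cells of replicate 1. With kappa genes alone, plasma cells were below B cells in each library under this lead rule.

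The constant-region transcripts of the same cells showed that these were mostly kappa cells. Of the 97 plasma cells with at least 100 light-chain constant UMIs, 79 had at least 90% of them from Igkc, the kappa constant region. Iglv1 had at least 10 UMIs in 45 of the 79 (31 of 46, 6 of 10 and 8 of 23), and it led 28 of the 79. The highest values were 432, 503 and 70 UMIs in replicates 1, 2 and 3. In these 79 cells Iglv1 had 3876 UMIs while Iglc1, the constant gene that Iglv1 normally joins, had 1530, a ratio of 253 V UMIs per 100 constant UMIs. For the kappa genes of the same cells the ratio was 0.764 V UMIs per 100 Igkc UMIs. A cell of replicate 2 with 503 Iglv1 UMIs had 8278 UMIs of Igkc, 59 of Iglc1 and 134 of Igkv12-44.

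In 3 plasma cells Iglc1 made up at least 50% of the light-chain constant UMIs, with 10598, 6319 and 10854 UMIs. These had only 71, 5 and 83 UMIs of Iglv1, or 0.573 per 100 Iglc1 UMIs. The cell with 5 also had 5782 UMIs of Igkc and was led by Igkv16-104. Another plasma cell of replicate 1, not among these 3, had 4253 of its 4320 light-chain constant UMIs from Iglc2. It held 149 UMIs of Iglv1, which led it, and 21 of Iglv2. In the 1813 B cells with at least 20 light constant UMIs and 90% from Igkc, Iglv1 had 13 UMIs in 13 cells (0.717%), or 4.76 per 100 Iglc1 UMIs, and at least 1 kappa V UMI was found in 523 (28.8%). In the 19 B cells in which Iglc1 held at least 50%, Iglv1 was found in 9 (47.4%), with 1.85 UMIs per 100 Iglc1 UMIs. Summed over cells, Iglv1 UMIs exceeded Iglc1 UMIs in the kappa plasma cells of replicates 1 and 2 (327 and 254 per 100). They did not in those of replicate 3 (84.1 per 100) or in kappa B cells, which held far fewer immunoglobulin UMIs each. In replicate 2 a single cell held 503 of the 745 Iglv1 UMIs. Counted by cell, Iglv1 exceeded Iglc1 in 25 of 46, 4 of 10 and 10 of 23 kappa plasma cells, so replicates 2 and 3 were close by this count. Counting only cells with at least 10 Iglv1 UMIs, it did so in 23 of 46, 4 of 10 and 6 of 23. The median Iglv1 count of the kappa plasma cells was 26, 14.5 and 2 UMIs. By these measures replicate 3 was lowest. What produced the differences between these ratios was not tested. All T cells of replicates 1, 2 and 3 together held 7, 4 and 0 Iglv1 UMIs, and the part of free RNA was not tested either. Iglv2, whose sequence differs from Iglv1 at 2 of the 75 bases compared, had 120, 0 and 3 UMIs in plasma cells, 86 of them in the cell of replicate 1 with 5 Iglv1 UMIs.

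**Figure D4:**
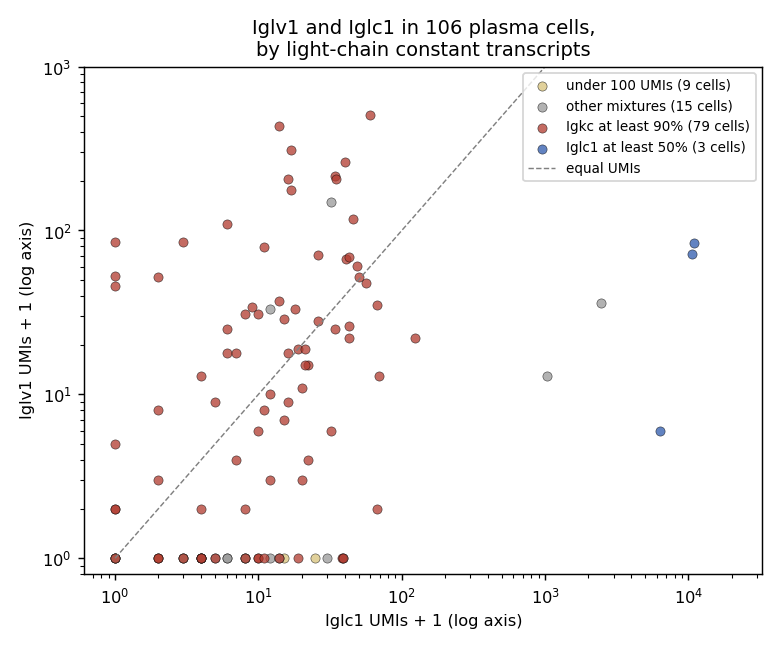
Iglv1 UMIs against Iglc1 UMIs in each of the 106 plasma cells (both plus 1, log axes), coloured by which light-chain constant gene held the cell's constant UMIs. Of the 45 kappa cells with at least 10 Iglv1 UMIs, 33 lie above the line of equal UMIs, while the 3 Iglc1 cells lie far to the right with 5 to 83 Iglv1 UMIs.

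Kappa V genes within a plasma cell were less clear-cut than heavy ones. A single gene held at least 90% of the kappa V UMIs in 31 of 63 plasma cells with at least 10 of them, but a single family did so in 59 of 63. Of 59 plasma cells whose first kappa gene had at least 10 UMIs, 37 had a second with at least 2, and in 28 of these it belonged to the same family, against 9.68% of all pairs of the 94 kappa genes with a sequence. Same-family pairs of first and second gene were 90.7% to 98.7% identical over 75 bases. Igkv3-10 with Igkv3-5 (2 differing bases) and Igkv6-32 with Igkv6-17 (3 differing bases) are examples. How reads were divided between such copies was not tested, so a kappa gene named here stands for itself and its near copies.

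With leads of at least 2 UMIs, pairs of heavy and light leads recurred within a library in replicate 1 only. There, 12 of 42 paired cells (28.6%, exact 95% interval 15.7% to 44.6%) shared their pair with another cell, against 0 of 11 and 0 of 17 in replicates 2 and 3, whose intervals reach 28.5% and 19.5%. The share over the 3 libraries was 9.52% ± 16.5, and it was 0% without replicate 1. Iglv1, which also led kappa cells, was the light lead in recurring pairs of Ighv2-2 (3 cells) and of Ighv1-18, Ighv1-26 and Ighv4-1 (2 cells each). The 2 cells of Ighv1-26 with Iglv1 had different leading kappa genes, Igkv1-135 and Igkv8-24. With kappa genes alone, pairs recurred in 9 of 42 (21.4%), 0 of 10 and 0 of 17 plasma cells. No pair recurred among the 6, 5 and 5 B cells with both leads. With a lead of at least 1 UMI, pairs recurred in 12 of 45, 0 of 11 and 2 of 22 plasma cells and in 12 of 119, 10 of 124 and 2 of 55 B cells, so recurrence was then neither limited to replicate 1 nor to plasma cells. With the plasma cells that had Cd3e UMIs included, an alternative added after the data were seen, the shares were 29.5%, 14.3% and 11.8%. Ighv1-26 with Igkv8-24 was found in 3 cells of replicate 1, all of them with Ighm (the IgM constant region), and in 1 Ighg2b cell of replicate 3. Ighv2-2 with Iglv1 was found in 3 cells, 2 with Igha and 1 with Ighg2b. With kappa genes alone, Ighv1-26 with Igkv8-24 was found in 4 cells of replicate 1, and Ighv1-18 with Igkv6-32 in 3.

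The 3 cells with Ighv1-18 and Igkv6-32 had Igha as their main constant region and similar counts, 14, 14 and 13 UMIs of Ighv1-18 and 85, 56 and 57 of Igkv6-32. Their Iglv1 counts were 14, 206 and 307 UMIs, with 21, 15 and 16 of Iglc1. Another 2 cells of replicate 1, both with Ighm, carried Ighv4-1 with 147 and 145 UMIs and were led by Iglv1. They had 262 and 8 Iglv1 UMIs, and their leading kappa genes differed, Igkv4-62 and Igkv4-78 with 2 UMIs each. A shared pair of V genes is not proof of a clone here, since the junctions were not read.

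Single V genes were tested with edgeR across all genes. Of 9230 genes tested, 20.5% were called higher and 17.1% lower in plasma cells than in B cells (adjusted p under 0.05). Of the 348 V genes 10 passed the filter on low counts, and all 10 were called higher and none lower, by edgeR and by DESeq2. Since several passed through their plasma-cell sums, a high level there was part of what let them be tested. The count is not read further, and fold changes of single V genes are given as sizes, without p-values. Iglv1 stood at 2464, 1830 and 504 CPM (UMIs scaled to the total of the library and class) in plasma cells and at 4.05, 2.03 and 1.92 in Ighd-positive B cells, a log2 fold change of 9.78 (SE 0.22). The log2 fold changes of Ighv1-39, Igkv3-10 and Igkv12-44 were 8.26 (SE 0.37), 6.79 (SE 0.38) and 6.57 (SE 0.42). In plasma cells of replicates 1, 2 and 3, Ighv1-39 stood at 6.42, 304 and 127 CPM and Igkv12-44 at 81, 302 and 486. The libraries thus differed widely. Each SE was computed from the fold change and the test statistic and is not the spread between libraries. Igkv3-10 rested on 7, 4 and 3 UMIs in Ighd-positive and 1, 0 and 1 in Ighd-negative B cells, and Ighv1-39 on 4, 13, 5 and 1, 1, 1. Igkv4-72 was called with 33, 7 and 11 UMIs in plasma cells and 1 UMI in all B cells, and no fold is given for it. The other 5 (Ighv5-4, Iglv3, Igkv12-46, Igkv6-20 and Igkv1-135) had log2 fold changes of 4.28 to 6.21. Without replicate 2 the number called was 25, without replicate 3 it was 20 and without replicate 1 it was 12, in each case all the V genes that passed the filter. Over all genes, 1676 of 9211, 1444 of 9370 and 1376 of 9003 were called higher in these settings.

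These sums often rested on few cells. Iglv1 had at least 2 UMIs in 66 plasma cells and Iglv3 in 34, and their highest cells held 11.8% and 10.5% of the sum. Igkv12-44 had 561 UMIs in plasma cells, 314 of them in a single cell of replicate 3, and Ighv1-39 had 234, of which 105 were in a cell of replicate 2. Igkv1-135 had 178, 30 and 0 UMIs in the 3 libraries, with 113 in the highest cell, and Igkv6-20 had 40, 0 and 38.

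Of 15 constant-region and receptor genes, 14 were tested, 11 were higher and 1 (Cd79a, log2 fold change -0.84, SE 0.14, edgeR adjusted p = 0.000299) was lower in plasma cells. Jchain, which defined the class, is among the 11, and the direction of Cd79a follows from its minimum in the B-cell rule, so neither is a finding. Igkc was 5.96 higher (SE 0.12, edgeR adjusted p = 7.2e-13) and Iglc1 6.96 higher (SE 0.43, adjusted p = 4.58e-08), both smaller than the log2 fold change of Iglv1 (9.78), a difference that was not tested. Of 6 genes of V(D)J recombination and the surrogate light chain, only Vpreb3 was tested (1.88 higher, SE 0.26, edgeR adjusted p = 9.59e-05), and Rag1, Rag2 and Dntt, which cut and extend the segments, had no UMI in these classes. Of 10 hypermutation and germinal-centre genes 6 were higher in plasma cells, against 20.5% of all 9230 genes tested. Among them were S1pr2 (4.44, SE 0.44, edgeR adjusted p = 4.54e-06) and the cycling gene Mki67 (4.6, SE 0.28, adjusted p = 4.6e-08). Bcl6 was not called (0.3, SE 0.24, edgeR adjusted p = 0.356). The class includes cells near the Jchain limit, and which of its cells carried these transcripts was not tested. The 14 J and 17 D segments listed in the tables had no UMI in the B-cell and plasma-cell classes.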

How the data were processed

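The authors aligned and counted the reads with Cell Ranger 6.0.1 on mm10 and deposited, per library, the matrix of UMI counts per gene and cell, which is raw and not normalized. The members and gene lists were chosen with earlier results of these data known. Cells were classed by the rules given above, with no doublet caller. Counts were summed per library and class (sums of at least 10 cells) and tested with edgeR 4.0.16 in R 4.3.3 (quasi-likelihood, TMM, filterByExpr, library as a block, Benjamini-Hochberg over all genes tested), with DESeq2 1.42.0 as an alternative. Same-numbered sums come from the same library, which is the pairing. The SE beside an edgeR log2 fold change was computed from the fold change and the test statistic. It is not the spread between libraries. Usage was computed in Python 3.11.15 and compared by exact two-sided sign-flip tests over 3 libraries, which cannot give p under 0.25. By the study's methods the libraries are pools of several mice from 2 independent experiments, and which library belongs to which experiment is not given in the sources used here, so experiments were not separated and p-values measure only the spread between these libraries. Named V genes were the 5 that led most cells per class and chain, the expanded genes, and the 5 largest edgeR fold changes. Intervals cover counting error only. The fitting code was tested on simulated data. Some results for the listed gene groups are not reported here.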

Additional observations from a re-analysis of the deposited data

Results flagged for a closer look

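Cells with plasma-cell transcripts that also had at least 1 UMI of Cd3e entered no class above, and they held V UMIs far above the level of T cells. There were 22, 24 and 24 such cells in replicates 1, 2 and 3, with 2162, 2630 and 2154 V UMIs, together 31% of the V UMIs of the series. All T cells together held 26, 38 and 68. These cells had median depths of 21262, 32477 and 29387.5 UMIs and a median of 3.5, 5 and 3 Cd3e UMIs, and Trac, a T-cell receptor constant gene, was found in 17, 16 and 16 of them. Whether they were doublets of a plasma cell and a T cell was not tested. Iglv1 led 8, 9 and 2 of them. Ighv1-26 with Igkv8-24, counted over plasma cells with and without Cd3e, was found in 10 cells, 5 of which had Cd3e.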

How the results depend on the processing

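Of 93 alternative values, 76 were scored the same as the main value and 17 were not. Usage values were scored the same where they lay within the SD of the main value over the libraries. Counts of V genes were scored the same where they equalled the main count or were close to it. A wide SD makes this score weak: the share of recurring pairs (9.524 ± 16.5) was scored the same even at 0 without replicate 1. Changes of sign were not scored apart. The heavy difference between plasma cells and B cells was 0.363 points, and -0.06991 without replicate 1 and -0.4453 without replicate 2. Light differences changed sign with kappa genes alone and under the study's filters, as given below. The mean share of B cells with a lead was 23.12% (heavy) and 22.19% (light) at 1 UMI, 0.08343% and 0.1281% at 5 UMIs and 80% of the chain, and 0.2753% and 0.193% after thinning to 1000 UMIs. The difference between plasma cells and B cells in the chance of a shared heavy gene was 3.272 points at 5 UMIs and 80%, with a value in 1 library. After thinning it was 17.62 ± 22.22, with a value in 2 libraries and only 3 plasma cells with a heavy lead in replicate 2. For the light chain it was -3.552 with kappa genes alone, chosen after seeing the data. Between Ighd-negative and Ighd-positive cells it was -0.2537 (heavy) and -0.354 (light) at 1 UMI, and 4.208 (light) under the study's filters, with a value in 1 library. The number of V genes higher in plasma cells was 87 without the filter on low counts, since 204 were then tested, 22 with plasma cells with any Cd3e (chosen after seeing the data), and 12 to 25 with a library left out. Over all genes, 1911 of 17634 were called higher without the filter and 2048 of 9206 with any Cd3e. V genes lower in Ighd-negative cells numbered 3 of 204 without the filter, where 58 of 17634 genes were called lower. All 3 are heavy V genes, which share a transcript with Ighd, by which the cells were split. Without the library as a block, 10 V genes were higher in plasma cells and 0 changed in the other tests, as with the block. Over all genes the block moved the calls higher in Ighd-negative cells from 28 to 67 and lower from 1 to 9, while Igha, Ighg1, Ighg2b and Fas were called there without it too (edgeR adjusted p of 0.0255, 0.0415, 0.004 and 0.0203). The study's filters left too few plasma cells for any value. Limits are the 11 to 48 plasma cells per library with a light lead, the 4 to 5 Ighd-negative cells with a heavy lead, the C57BL/6 reference and near-identical V genes.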

Other observations

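The V genes that led B cells were not spread evenly along the loci. With a lead of at least 1 UMI and the genes ordered from the J segments outward, 3 parts of nearly equal gene number were compared. The nearest part of the kappa genes (53 genes, Igkv3-1 to Igkv4-51) held 47.7% ± 2.75 of the B cells with a kappa lead, the middle part (53 genes, Igkv4-53 to Igkv4-92) 9.02% ± 0.888 and the farthest part (54 genes) 43.3% ± 3.36 (mean ± SD, n = 3 libraries). Plasma cells gave 55.8% ± 5.04, 12.6% ± 7.93 and 31.6% ± 7.36, from 30, 5 and 17 cells. A kappa lead here means that a kappa gene led all light genes. Plasma cells led by Iglv1, most of them kappa cells by their constant region, were thus left out. The plasma-cell shares therefore do not describe all kappa plasma cells and are not compared with those of B cells. For the heavy chain of B cells the 3 parts held 41.3% ± 2.71, 27.1% ± 1.08 and 31.7% ± 3.1. The parts count all listed genes, among them 60 kappa pseudogenes. The middle kappa part includes Igkv4 genes that are near copies of each other, and a cell with a tie has no lead. What these did to the shares was not tested. All of these shares are descriptions, with no test.

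Among the 132 V UMIs of T cells, Igkv16-104 had 20 and Ighv1-59 had 19, all in 1 cell of replicate 3. Igkv12-44, Igkv3-12 and Iglv1 had 11 each.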
